A study of Mus musculus with 32 samples.

Results

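The mRNAs of the 3 subunits of the translation initiation factor eIF2 (Eif2s1, Eif2s2 and Eif2s3x), of the 5 subunits of its exchange factor eIF2B (Eif2b1 to Eif2b5) and of the GTPase activator Eif5 were followed through acute and chronic stress of the endoplasmic reticulum (ER). These 9 genes were taken by their symbols from a table of 20234 genes. All 9 were counted in every library and passed the filter on low counts. The cells were MEFs, fibroblasts grown in culture from mouse embryos. They received thapsigargin, which blocks the calcium pump of the ER, for 1 h, for 16 h, or for 16 h with an inhibitor of the ER kinase PERK during the last 4 h, and control cells were at 0 h of thapsigargin. The 4 conditions had 4 samples each, and RNA of all 16 samples was sequenced in both forms, cytosolic and polysome (mRNAs with more than 4 ribosomes), in 32 libraries. Genotype, strain and passage of the cells, the doses, the name of the inhibitor and any solvent given to the other groups are not stated in the labels.

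The eIF2 complex binds GTP and the initiator tRNA and carries the tRNA to the small ribosomal subunit. When the start codon is recognised, eIF5 stimulates hydrolysis of the GTP, and eIF2B then exchanges GDP for GTP so that eIF2 can act again. Under ER stress PERK phosphorylates the alpha subunit of eIF2, and phosphorylated eIF2 inhibits eIF2B, which lowers translation of most mRNAs while some mRNAs with upstream open reading frames escape or gain. All values here are levels of the mRNAs that encode these proteins, and neither protein nor phosphorylation was measured.

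On GRCm38 (mm10), with the GENCODE vM21 annotation, Eif2s1 lies on chromosome 12 from 78861819 to 78887010, Eif2s2 on chromosome 2 from 154871410 to 154892935 and Eif2s3x on chromosome X from 94188707 to 94212862. Of the eIF2B genes, Eif2b1 lies on chromosome 5 from 124570213 to 124579131 and Eif2b4 on the same chromosome from 31187558 to 31193430. Eif2b2 lies on chromosome 12 from 85219481 to 85226628, Eif2b3 on chromosome 4 from 117019402 to 117087306 and Eif2b5 on chromosome 16 from 20498817 to 20509323. Eif5 lies on chromosome 12 from 111538016 to 111546752. All are protein-coding, and their coding sequences ran from 918 nt (Eif2b1) to 2154 nt (Eif2b5). Eif2s3y, the copy of Eif2s3x on the Y chromosome, had 0 counts in all 32 libraries, so no reads were split with it in the deposited table.

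An ATG in the leader, the transcript before the coding start, is the simplest feature that an upstream open reading frame needs. In the annotated transcripts used here, 5 of the 9 genes (55.6%) had at least 1, against 54.2% of the 18836 genes of the table with an annotated leader. Eif5 had the longest leader, 626 nt, with 5 upstream ATGs, and Eif2b4 had 407 nt with 4. Eif2s1 had 2, Eif2s2 and Eif2s3x had 1 each, and Eif2b1, Eif2b2, Eif2b3 and Eif2b5 had none. The start sites of the mRNAs with the most upstream ATGs are shown, because the translational efficiency (polysome over cytosolic level) of these 2 mRNAs changed in opposite directions under thapsigargin, Eif5 upward and Eif2b4 downward. Each is given with the bases around it, 5′ to 3′, read from the GENCODE vM21 transcript and with the ATG in capitals. Positions count from the first base of the transcript.
Eif5, upstream ATG at 84: acgtgcATGc
Eif5, upstream ATG at 94: gagccaATGa
Eif5, upstream ATG at 397: gggtttATGt
Eif5, upstream ATG at 505: tttttcATGt
Eif5, upstream ATG at 537: tcgtttATGt
Eif5, coding start at 627: gccaaaATGt
Eif2b4, upstream ATG at 15: tcaggaATGg
Eif2b4, upstream ATG at 27: aagtgcATGt
Eif2b4, upstream ATG at 161: tgtaggATGa
Eif2b4, upstream ATG at 190: ctcggcATGc
Eif2b4, coding start at 408: acagtcATGg
In this Eif5 transcript, the reading frames of the ATGs at 397 and 505 run past the coding start, and the other 3 end before it. The 4 frames of Eif2b4 all end before its coding start. Eif5 has other annotated leaders, of 374 nt with 3 upstream ATGs and of 287 nt with 1. Eif2s2 also has another annotated leader, of 78 nt with no upstream ATG. Counts per gene do not tell which of these leaders were present.

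Libraries held 19.32 to 41.78 M counts. Levels are CPM, a gene's counts per M counts of its library, with TMM factors computed within cytosolic or within polysome RNA, and each comparison used the quasi-likelihood test of edgeR, with p-values adjusted by Benjamini-Hochberg over all genes tested. A gene was called at an adjusted p under 0.05, and log2 changes are given with their standard errors (SE). Polysome level over cytosolic level of a gene is called its translational efficiency. For this ratio and its test, TMM factors were computed over all 32 libraries together. The ratios are therefore not those of the CPM values printed here, and whether a ratio lies above or below 0 on the log2 scale depends on this scaling. Scaling makes each change one relative to other mRNAs in the libraries, and fewer cells cannot be told apart from less RNA per cell. All 10 fibroblast markers were at or above 5 CPM in every cytosolic group, with summed cytosolic levels of 8990 to 12600 CPM in control cells, 19900 to 24700 CPM at 1 h, 4380 to 5160 CPM at 16 h and 4350 to 5030 CPM with the inhibitor. Of 25 markers of other cell types, the 5 neural ones reached the highest cytosolic sums at 1 h and at 16 h. The neural sums were 1.51 to 3.37 CPM in control cells, 5.14 to 7.12 CPM at 1 h, 11.4 to 20.1 CPM at 16 h and 2.12 to 3.09 CPM with the inhibitor. In control cells the 5 haematopoietic markers had higher sums, 3.83 to 5.67 CPM. Only 1 of the 5 neural genes was at or above 5 CPM in cytosolic RNA at 1 h and at 16 h, and Sox1 was at 0 in all groups. Like the cytosolic levels of the members, the neural sum was higher at 16 h than in control cells and lower with the inhibitor than without it, and its part in the results was not tested.

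Levels can be compared between genes only per length, here as CPM per kb of coding sequence. In control cytosolic RNA the eIF2 subunits and Eif5 stood above all eIF2B subunits. Eif2s2, the beta subunit of eIF2, was at 336 ± 31.7 CPM per kb (SD, n = 4) and Eif2s3x, the gamma subunit that binds GTP and tRNA, at 315 ± 26.2, and their libraries overlapped. Eif5 followed at 238 ± 25.0 CPM per kb and Eif2s1, the alpha subunit that is phosphorylated, at 108.7 ± 13.0, each apart from its neighbours. The eIF2B subunits stood in the order Eif2b5 (55.7 ± 0.968 CPM per kb), Eif2b1 (52.6 ± 2.96), Eif2b3 (26.9 ± 2.69), Eif2b2 (20.8 ± 3.88) and Eif2b4 (17.2 ± 1.36). Eif2b5 overlapped with Eif2b1 and Eif2b2 with Eif2b4, while Eif2b3 stood apart from both pairs. These are levels of mRNA, so a spread within a complex says nothing of the proportions of its proteins.

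The order changed most for Eif2b3, the gamma subunit that forms the catalytic part of eIF2B together with epsilon. At 16 h it was the most abundant eIF2B mRNA per coding length, at 80.1 ± 6.53 CPM per kb in cytosolic RNA, where it overlapped with Eif2b1, and at 142.7 ± 6.82 CPM per kb in polysome RNA, where it stood apart. With the inhibitor it was next to last, at 21.4 ± 0.729 CPM per kb in cytosolic RNA and 32.5 ± 1.62 in polysome RNA, and it overlapped with Eif2b4 in both. Within polysome RNA, Eif5 was the fifth in control cells (102.9 ± 11.9 CPM per kb), the third at 1 h (131.4 ± 5.13) and the second at 16 h (320.4 ± 18.3), where it overlapped with Eif2s2.

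**Figure D1:**
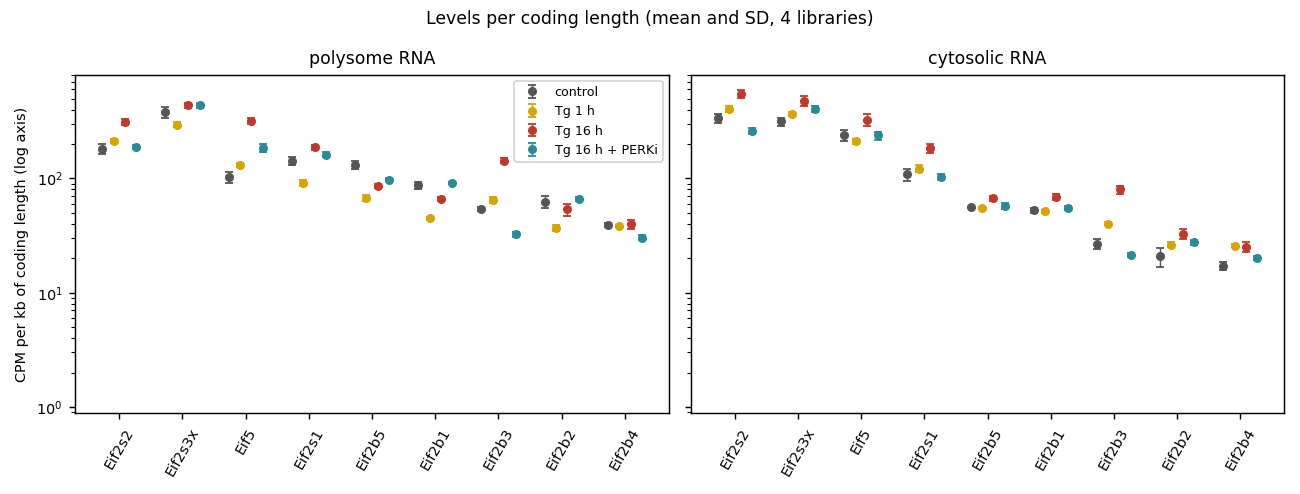
Level per kb of coding sequence (y axis, CPM per kb, log scale) of the 9 mRNAs (x axis, ordered by control cytosolic RNA) in polysome and cytosolic RNA, with mean and SD of 4 libraries per condition. The eIF2 subunits and Eif5 lie above most eIF2B subunits, and polysome Eif2b3 was at 32.5 ± 1.62 CPM per kb with the inhibitor, against 142.7 ± 6.82 CPM per kb at 16 h without it.

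In cytosolic RNA, all 9 mRNAs were higher at 16 h of thapsigargin than in control cells, and 5 were already higher at 1 h. At 16 h the background was 77.3% of all genes tested called, 37.9% upward and 39.4% downward, so a call by itself is common here, and what the 9 share is the direction. Their median log2 change was 0.60, against -0.012 for all genes tested. In all 9 the 4 libraries at 16 h lay above the 4 control libraries. How often libraries separated in this way was not counted over all genes tested, here or below. Such separation therefore does not set the 9 apart from other genes. At 1 h the background was 56.2% of all genes tested called, 28.1% upward and 28.1% downward, and no member was called downward. Between 16 h and 1 h, 8 were higher at 16 h, with 75.3% of all genes tested called, 37.7% upward and 37.7% downward. In a further fit, library offsets were corrected for coding length, with a smooth trend of level on length taken out of each library. All 9 calls at 16 h against control held there. At 1 h against control 6 were called higher and 1 lower, Eif2b5 (-0.14, adjusted p = 0.0168), and between 16 h and 1 h 7 were higher. In the corrected fit 38% of all genes tested were called higher and 39.6% lower at 16 h against control. The shares were 27.9% and 26.8% at 1 h against control, and 36.9% and 38.2% between 16 h and 1 h.

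Eif2s1 was at 121.2, 94.9, 100.1 and 96.1 CPM in control cells, at 110.2, 119.05, 107.7 and 125.9 CPM at 1 h and at 195.4, 168.7, 158.6 and 173.9 CPM at 16 h. The 1 h libraries overlapped with the control libraries, and all 16 h libraries lay above both. The log2 change at 16 h was 0.76 ± 0.082 (SE), 1.69-fold, with an adjusted p of 2.16e-07. At 1 h it was 0.17 ± 0.082 and did not pass (adjusted p = 0.0934). It was called without control number 1, the highest control library (0.25), and, with all libraries kept, with the correction for coding length (0.29, adjusted p = 0.00743). The adjusted p of this result ranged between 0.00093 and 0.222 over the alternatives tried.

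Eif2s2 was at 375, 299, 329 and 336 CPM in control cells, at 376, 419, 384 and 428 CPM at 1 h and at 607, 533, 504 and 549.7 CPM at 16 h. The 3 groups did not overlap. Relative to control it was 1.20-fold higher at 1 h (adjusted p = 0.0055) and 1.64-fold higher at 16 h (adjusted p = 1.08e-07). Eif2s3x ranged over 416 to 500.0 CPM in control cells, 499.8 to 544 CPM at 1 h and 630.2 to 774 CPM at 16 h. The 1 h range overlapped with that of control, and Eif2s3x was 1.17-fold higher at 1 h and 1.51-fold higher at 16 h (adjusted p = 0.0112 and 6.73e-07).

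Among the eIF2B subunits, Eif2b3 changed most. It was at 41.8, 34.3, 33.8 and 36.4 CPM in control cells, at 52.5, 55.6, 54.4 and 55.6 CPM at 1 h and at 120.9, 104.3, 100.5 and 109.5 CPM at 16 h, in 3 groups without overlap. The log2 change from control was 0.58 ± 0.067 at 1 h and 1.57 ± 0.068 at 16 h, or 2.98-fold (adjusted p = 1.06e-12). The other catalytic subunit, Eif2b5 (epsilon, which carries the exchange activity), changed least of the 5 at 16 h. It was at 152.99, 137.1, 138.6 and 147.8 CPM at 16 h, against 119.8, 118.4, 118.5 and 122.9 CPM in control cells, which is 1.20-fold higher (adjusted p = 6.87e-05).

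The regulatory subunits of eIF2B, alpha (Eif2b1), beta (Eif2b2) and delta (Eif2b4), differed in timing. Eif2b4 was at 41.6, 39.4, 41.7 and 39.3 CPM at 1 h, against 24.1, 29.3, 27.3 and 27.5 CPM in control cells, and was 1.496-fold higher (adjusted p = 2.98e-06). Its 16 h level was 33.7, 41.7, 43.2 and 39.7 CPM, and the change between 16 h and 1 h was not called (log2 change -0.034 ± 0.071, interval -0.17 to 0.11). Eif2b1 ranged over 46.0 to 48.8 CPM at 1 h and 44.9 to 51.3 CPM in control cells, with no call (adjusted p = 0.631), and was 1.31-fold higher at 16 h (59.6 to 68.3 CPM). Eif2b2 was at 29.8, 36.3, 37.5 and 34.6 CPM at 16 h, against 15.9, 25.1, 23.7 and 23.1 CPM in control cells. Control number 1 was the lowest, and all 16 h libraries still lay above all controls, with a 1.57-fold higher level (adjusted p = 3.28e-05). Cytosolic control number 1 and 16 h number 1 were also the cytosolic libraries farthest from their groups over all genes, and with both left out all 9 calls at 16 h held.

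**Figure D2:**
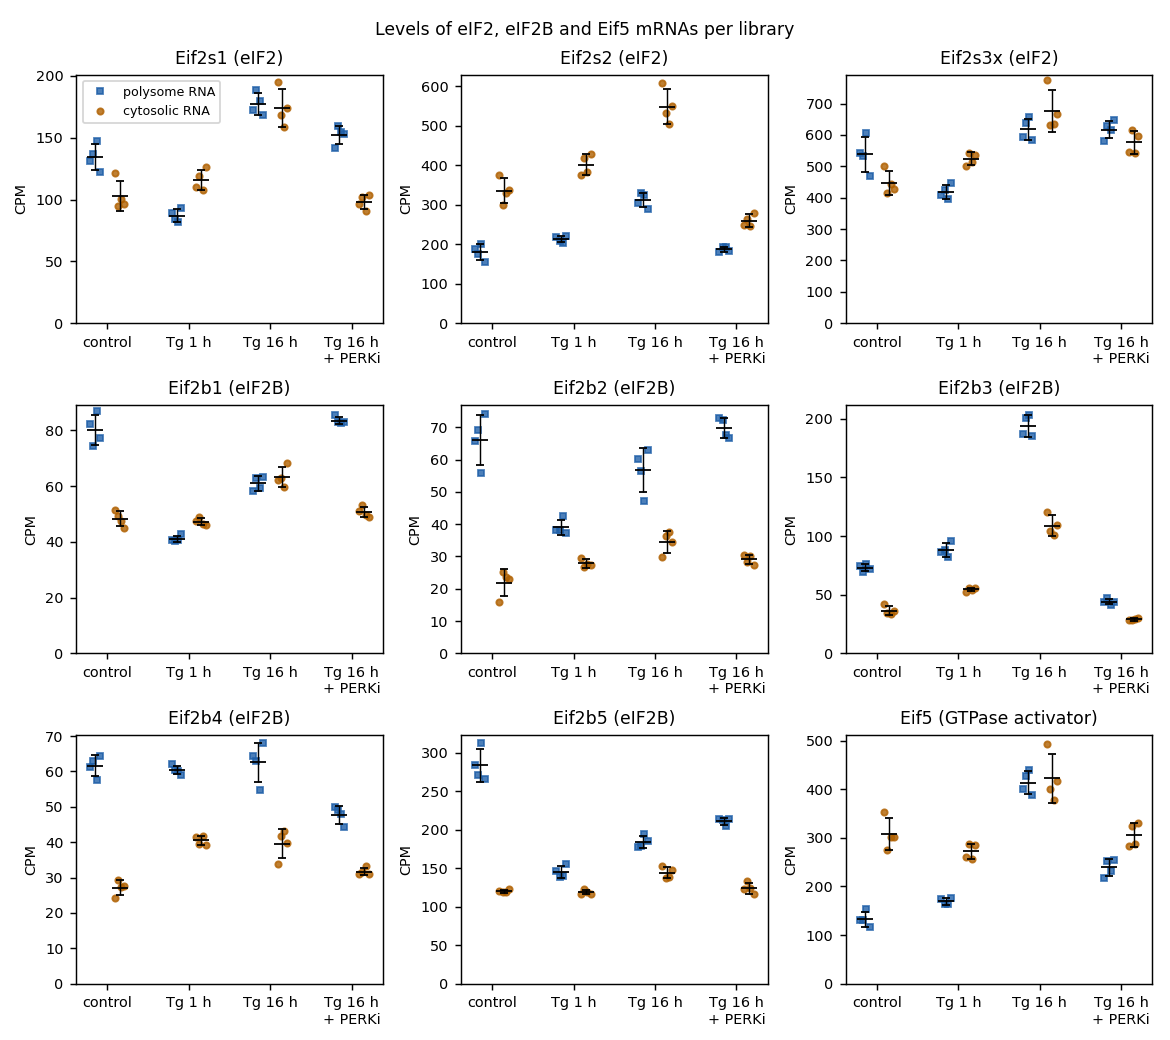
Level of each mRNA (y axis, CPM, from 0) in every library by condition (x axis), polysome RNA as squares and cytosolic RNA as circles, with mean and SD of 4 libraries in black. Cytosolic levels at 16 h lie above control for all 9, and Eif2b3 reaches 100.5 to 120.9 CPM at 16 h in cytosolic RNA, against 33.8 to 41.8 CPM in control cells.

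With the PERK inhibitor during the last 4 h of thapsigargin, all 9 mRNAs were lower in cytosolic RNA than at 16 h without it. The background was 74.7% of all genes tested called, 42.2% upward and 32.5% downward, and the median of all genes was shifted by 0.10 on the log2 scale in the upward direction, so the changes relative to the typical gene are larger by that amount. The median log2 change of the 9 was -0.32. This comparison shares its 16 h libraries with that of 16 h against control, so the opposite signs of the changes are not independent of each other.

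Eif2b3 was at 28.3, 28.4, 29.0 and 30.5 CPM in inhibitor-treated cells, against 120.9, 104.3, 100.5 and 109.5 CPM at 16 h without inhibitor. The groups were far apart, and the level was 3.75-fold lower (log2 change -1.91 ± 0.068, adjusted p = 1.73e-13). Eif2s2 was at 249, 264, 245 and 280.1 CPM with the inhibitor, 2.11-fold lower than at 16 h without it (adjusted p = 6.32e-10), and Eif2s1 at 96.6, 101.8, 90.4 and 103.7 CPM, 1.77-fold lower (adjusted p = 8.17e-08). No library of either gene overlapped between the 2 conditions.

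The other changes with the inhibitor were smaller. Eif5 was 1.38-fold lower, Eif2b1 and Eif2b4 were each 1.25-fold lower, Eif2s3x 1.17-fold, Eif2b2 1.19-fold and Eif2b5 1.16-fold lower. Eif2b2 was the exception in overlap, with 27.4 to 30.4 CPM in inhibitor-treated cells and 29.8 to 37.5 CPM at 16 h without inhibitor. Its adjusted p was 0.0452, and the call was lost in 12 of the 16 fits that left out 1 sample, with log2 changes between -0.31 and -0.21 in all 16. With library offsets corrected for coding length, the changes of Eif2s3x (-0.14) and Eif2b5 (-0.079) kept their direction and lost their calls.

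Against control cells, the inhibitor-treated cells had 3 of the 9 mRNAs higher and 2 lower in cytosolic RNA, with 73.3% of all genes tested called, 38.1% upward and 35.2% downward. Eif2s3x, Eif2b2 and Eif2b4 were 1.29-, 1.32- and 1.17-fold higher. Eif2s2 and Eif2b3 were below control, 1.29- and 1.26-fold lower (adjusted p = 0.000239 and 0.000323). For both, all 4 libraries with the inhibitor lay below all 4 control libraries. For Eif2s1, Eif2b1, Eif2b5 and Eif5 no difference was detected, and the intervals of their log2 changes ran from -0.23 to 0.090, -0.028 to 0.17, -0.044 to 0.14 and -0.17 to 0.16. With the correction for coding length Eif2b5 was called higher (0.14, adjusted p = 0.00806), and the other 8 calls and misses were the same.

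In polysome RNA the 9 mRNAs went in both directions, and how many went each way depended on the correction for coding length. At 1 h, 5 were lower and 3 higher than in control cells, with 79.5% of all genes tested called, 41.1% upward and 38.5% downward. The 5 were Eif2s1, Eif2s3x, Eif2b1, Eif2b2 and Eif2b5, and the 3 were Eif2s2, Eif2b3 and Eif5. At 16 h, 5 were higher (Eif2s1, Eif2s2, Eif2s3x, Eif2b3 and Eif5) and 3 lower (Eif2b1, Eif2b2 and Eif2b5), with 85.1% of all genes tested called, 42.3% upward and 42.9% downward. With the correction the split was 3 higher and 3 lower at 1 h and 7 higher and 1 lower at 16 h, where Eif2b1 and Eif2b2 were called higher (adjusted p = 0.0285 and 0.019) and Eif2b5 alone was lower. Of all genes tested, 42.2% were then called higher and 34.8% lower at 1 h, so the split at 1 h was near these shares. At 16 h the corrected shares were 44% and 41.2%. Eif2b4 was not called at either time in either fit. Between 16 h and 1 h all but Eif2b4 were higher at 16 h, 8 of 9 in both fits. In the uncorrected fit 78.5% of all genes tested were called, 38.4% upward and 40% downward, and in the corrected one 38.2% upward and 40.6% downward.

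Over all genes with coding sequences above 600 nt, changes in polysome RNA went with length, which bears on these counts. At 16 h the median log2 change against control was -0.45 for coding sequences of 600 to 1000 nt, -0.22 for 1000 to 1500 nt, 0.25 for 1500 to 2200 nt and 0.59 above 2200 nt. At 1 h the 4 medians were -0.58, -0.31, 0.18 and 0.89. Coding sequences up to 600 nt, a class without members, broke this order, with medians of -0.23 at 16 h and -0.067 at 1 h. Eif2b1 (918 nt), Eif2s1 (948 nt) and Eif2s2 (996 nt) belong to the class of 600 to 1000 nt. Eif2b2 (1056 nt), Eif5 (1290 nt), Eif2b3 (1359 nt) and Eif2s3x (1419 nt) belong to that of 1000 to 1500 nt. Eif2b4 (1575 nt) and Eif2b5 (2154 nt) are in the class of 1500 to 2200 nt. The changes of the members in polysome RNA are therefore given with their corrected values.

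Eif2b5 was at 284, 270.4, 313 and 266 CPM in control polysomes, at 146.9, 138.8, 139.6 and 155.9 CPM at 1 h and at 177.5, 178.5, 194.1 and 185.5 CPM at 16 h. Both stressed groups lay below every control library. The log2 change was -0.96 ± 0.052 at 1 h and -0.62 ± 0.052 at 16 h (adjusted p = 5.7e-13 and 5.06e-10). With correction for coding length the falls were larger, -1.27 and -0.91.

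Eif2b1 was at 82.1, 74.5, 86.9 and 77.4 CPM in control polysomes, at 40.7, 40.4, 40.7 and 42.7 CPM at 1 h and at 58.2, 63.0, 59.3 and 63.4 CPM at 16 h. The 3 groups did not overlap, and the log2 changes from control were -0.96 ± 0.050 and -0.40 ± 0.049. Corrected for coding length, the change at 1 h was -0.31 and still called, and that at 16 h was 0.12, of opposite sign and called. Eif2b2 behaved alike in this respect: its log2 change was -0.76 ± 0.087 at 1 h and -0.22 ± 0.085 at 16 h, and after the correction -0.18 (not called) and 0.21 (called). The uncorrected fall of Eif2b2 at 16 h (47.2 to 63.0 CPM at 16 h and 55.8 to 74.0 CPM in control cells) was also lost without control number 2 (-0.20), control number 4 (-0.16) or 16 h number 3 (-0.14).

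Eif2b3 rose in polysomes as it did in cytosolic RNA. It was at 74.7, 69.5, 76.0 and 71.9 CPM in control cells, at 86.1, 87.9, 82.3 and 96.1 CPM at 1 h and at 186.97, 201, 203 and 184.9 CPM at 16 h. The 16 h libraries were the highest of all conditions, 2.66-fold above control (log2 change 1.41 ± 0.054, 1.55 corrected for coding length). Eif2b4 differed from control by -0.028 at 1 h and 0.022 at 16 h, with intervals of -0.15 to 0.090 and -0.094 to 0.14, and corrected by 0.056 and -0.023.

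The eIF2 subunits went in different directions at 1 h. Eif2s1 was at 88.9, 84.1, 81.8 and 93.2 CPM at 1 h, against 130.96, 136.4, 146.9 and 121.97 CPM in control polysomes, all below control (log2 change -0.62 ± 0.059). This fall was not seen with the correction for coding length (0.023). At 16 h Eif2s1 was at 172.5, 188.3, 179.6 and 168.4 CPM, all above control, with a log2 change of 0.40 ± 0.058, or 0.91 corrected. Eif2s2 was higher at both times, by 0.24 ± 0.062 and 0.79 ± 0.062, and by 0.86 and 1.27 corrected. Eif2s3x was lower at 1 h (-0.36 ± 0.063) and higher at 16 h (0.20 ± 0.063), and corrected for length these were -0.15 and 0.28, both still called.

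**Figure D3:**
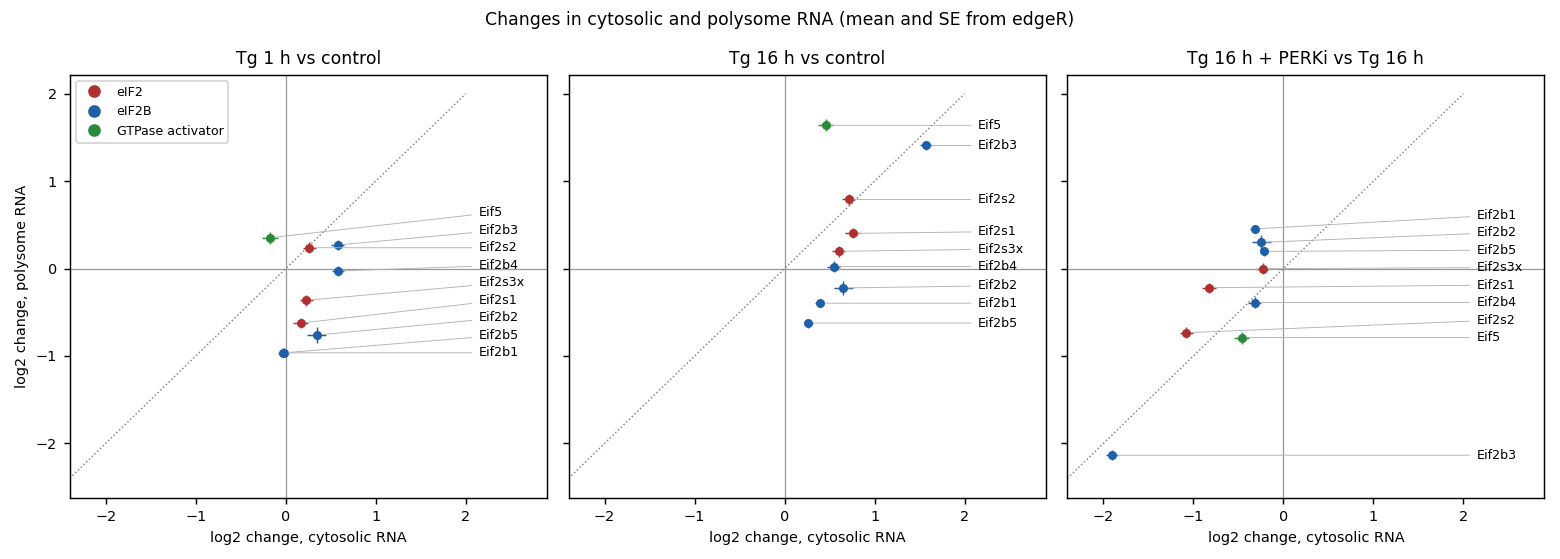
Log2 change in polysome RNA (y axis) against log2 change in cytosolic RNA (x axis) for each mRNA in 3 comparisons, with standard errors from edgeR and a dotted line where both are equal. At 16 h all 9 points lie right of 0, Eif5 lies far above the line and Eif2b1, Eif2b2 and Eif2b5 lie below 0 in polysome RNA. Corrected for coding length, the polysome changes of Eif2b1 and Eif2b2 at 16 h were 0.12 and 0.21.

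With the inhibitor, 3 of the 9 mRNAs were higher in polysome RNA than at 16 h without it and 5 were lower, with 82.8% of all genes tested called, 42.1% upward and 40.7% downward. Eif2b3 fell most, to 44.1, 47.0, 41.6 and 43.8 CPM with the inhibitor, against 186.97, 201, 203 and 184.9 CPM at 16 h without it. The groups were far apart, 4.39-fold lower (log2 change -2.14 ± 0.055, adjusted p = 3.02e-18, -2.13 corrected for coding length). Eif5, Eif2s2, Eif2b4 and Eif2s1 were also lower, with log2 changes of -0.79 ± 0.069, -0.73 ± 0.062, -0.39 ± 0.060 and -0.22 ± 0.057. Corrected, these were -0.87, -1.14, -0.18 and -0.67, all still called, so the correction made the difference of Eif2s1 larger and that of Eif2b4 smaller.

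The 3 mRNAs that were higher were Eif2b1, Eif2b5 and Eif2b2. Eif2b5 was at 213, 212, 204 and 213 CPM with the inhibitor, against 177.5, 178.5, 194.1 and 185.5 CPM at 16 h without it. All libraries with the inhibitor lay above, by 0.20 ± 0.052 on the log2 scale and 0.66 corrected for coding length. Eif2b1 was at 85.4, 82.9, 82.6 and 83.1 CPM with the inhibitor, against 58.2, 63.0, 59.3 and 63.4 CPM without it, higher by 0.45 ± 0.049, and Eif2b2 was higher by 0.30 ± 0.084. Corrected for coding length, the differences of Eif2b1 and Eif2b2 were -0.025 and -0.050 and were not called. Eif2s3x differed by -0.0011 ± 0.063, with an interval of -0.12 to 0.12, and corrected by 0.067, not called. Over all genes above 600 nt this comparison also went with length. The median log2 changes were 0.61 for 600 to 1000 nt, 0.18 for 1000 to 1500 nt, -0.33 for 1500 to 2200 nt and -0.76 above 2200 nt. Up to 600 nt the median was 0.54.

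Relative to control, polysomes of inhibitor-treated cells held more Eif2s1, Eif2s3x and Eif5 and less Eif2b3, Eif2b4 and Eif2b5, with 77.1% of all genes tested called, 36.8% upward and 40.3% downward. Eif2b3 was 1.65-fold lower with the inhibitor than in control cells (41.6 to 47.0 against 69.5 to 76.0 CPM). Eif2b4 was 1.29-fold and Eif2b5 1.34-fold lower. All 3 mRNAs had their libraries apart from those of control cells. Of the 3 that were higher, Eif5 was also apart, while Eif2s1 and Eif2s3x overlapped with control cells. With the correction for coding length all 6 calls held, with 40.9% of all genes tested called upward and 36.2% downward. The log2 changes of Eif2b4 and Eif2b5 were then -0.21 and -0.25, against -0.37 and -0.43 uncorrected, and that of Eif2b3 was -0.59, against -0.73. Eif2s1, Eif2s3x and Eif5 were at 0.18, 0.20 and 0.85 uncorrected and at 0.23, 0.34 and 0.98 corrected.

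For translational efficiency, the interaction between RNA kind and condition was tested over all 32 libraries. At 1 h it was lower for 7 of the 9 mRNAs and higher for Eif5, with 67.8% of all genes tested called, 33.4% upward and 34.4% downward. At 16 h it was lower for 6 and higher for Eif5, with 64.2% of all genes tested called, 31.1% upward and 33% downward. Eif2s2 was not called at either time, and Eif2b3 was called at 1 h (-0.38 ± 0.098) and not at 16 h (-0.21 ± 0.096). With the correction it was -0.13 at 1 h, not called, and -0.021 at 16 h. The uncorrected 16 h value was called in 5 alternatives, among them the fit without control number 1 (-0.28) and that without 16 h number 3 (-0.30). The difference of Eif2b3 between 16 h and 1 h was not called either (adjusted p = 0.228), but was without number 1 of control and 16 h (0.24). Between 16 h and 1 h, Eif2s1 (0.46 ± 0.11) and Eif5 (0.67 ± 0.12) were higher at 16 h, and 7 were not called, with 28.1% of all genes tested called, 14.5% upward and 13.6% downward. With the correction, 2 mRNAs were higher and 6 lower at 1 h and 2 higher and 5 lower at 16 h, Eif2s2 being the second one higher. Of all genes tested, 33% were then called higher and 32.8% lower at 1 h, and 31.3% and 30.4% at 16 h.

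The log2 ratio of polysome to cytosolic RNA of Eif2b5 was 1.65, 1.63, 1.82 and 1.54 in control cells, 0.73, 0.51, 0.57 and 0.77 at 1 h and 0.56, 0.75, 0.91 and 0.68 at 16 h. Both stressed groups lay below every control sample, and the changes were -1.01 ± 0.085 and -0.93 ± 0.085 (adjusted p = 4.82e-09 and 1.57e-08). Corrected for coding length they were -1.18 and -1.18. Eif2b1 and Eif2b2 also fell at 16 h, with log2 changes of -0.83 ± 0.073 and -0.94 ± 0.14. The correction reduced these falls to -0.35 and -0.52, both still called, so in translational efficiency their direction held although that of their polysome level did not.

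The efficiency of Eif2b4 was lower, with log2 changes of -0.68 ± 0.095 at 1 h and -0.57 ± 0.095 at 16 h, as was that of Eif2s3x, with -0.66 ± 0.10 and -0.45 ± 0.10, and all 4 calls were kept with the correction. For Eif2s1 and Eif2s2 the correction changed calls. Eif2s1 had log2 changes of -0.86 ± 0.11 at 1 h and -0.40 ± 0.11 at 16 h, and corrected for length these were -0.38, still called, and 0.072, not called. Eif2s2 changed by -0.087 ± 0.11 and 0.033 ± 0.11 without a call, and corrected it was higher by 0.38 and 0.49, both called.

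**Figure D4:**
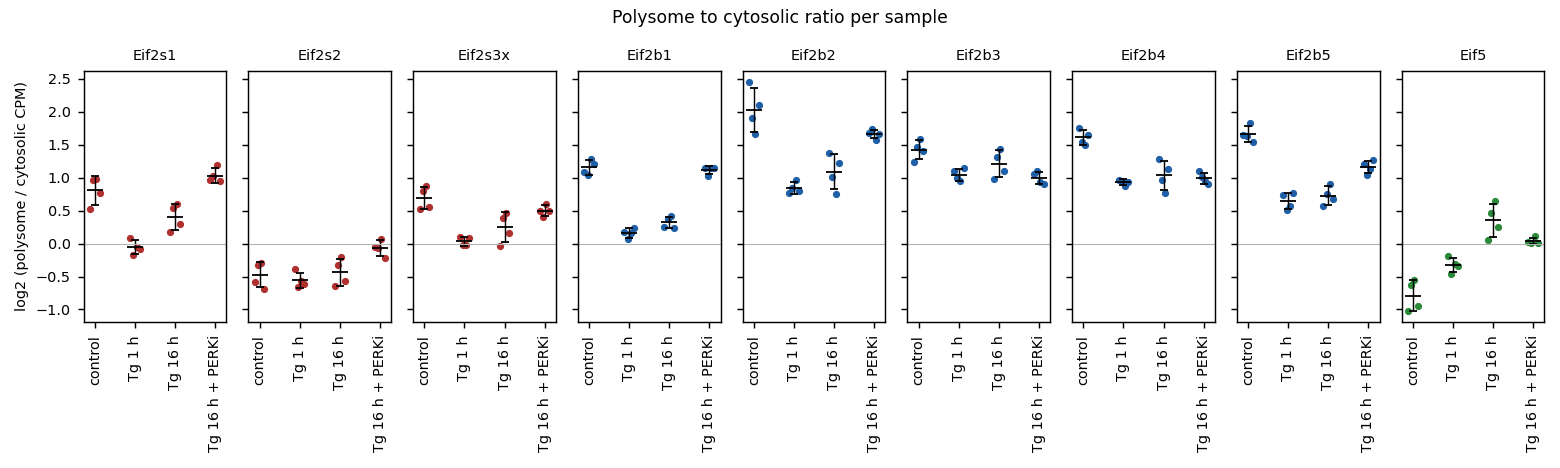
Log2 ratio of polysome to cytosolic CPM (y axis) of each mRNA in every sample by condition (x axis), with mean and SD of 4 samples in black. CPM here use TMM factors over all 32 libraries, and the heights of the points depend on that scaling. Control samples of Eif5 range over -1.02 to -0.55, below all samples of the other conditions, whereas control samples of the 5 eIF2B subunits lie above 1.

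With the inhibitor, translational efficiency was higher than at 16 h without it for 6 of the 9 mRNAs and lower for Eif5, with 60.1% of all genes tested called, 26.4% upward and 33.7% downward. The highest gain was in Eif2b1, at 1.15, 1.02, 1.15 and 1.15 with the inhibitor, against 0.25, 0.37, 0.42 and 0.24 at 16 h without it. No samples overlapped, and the change was 0.80 ± 0.072 (adjusted p = 2.26e-08), or 0.33 corrected for coding length and still called. Eif2b5 gained 0.44 ± 0.085, and 0.71 corrected. The gains of Eif2s1 (0.63 ± 0.11), Eif2b2 (0.57 ± 0.14), Eif2s2 (0.37 ± 0.11) and Eif2s3x (0.25 ± 0.10) were not called after the correction, at 0.18, 0.20, -0.046 and 0.17. The call for Eif2s3x was also lost in 5 of the 16 fits without 1 sample, with changes of 0.16 to 0.34 over the 16. All 5 left out a sample at 16 h or with the inhibitor, the groups of this comparison. Eif2b3 (-0.21 ± 0.097) and Eif2b4 (-0.049 ± 0.094) were not called, and the polysome level of Eif2b3 was 4.39-fold lower beside a 3.75-fold lower cytosolic level. The efficiency of Eif2b3 was called lower with the correction (-0.33, adjusted p = 0.00661), without 16 h number 1 (-0.28) and without number 1 of control and 16 h (-0.29). Eif2b4 was at -0.026 with the correction and not called, and in all 2 mRNAs were then higher (Eif2b1 and Eif2b5) and 2 lower (Eif2b3 and Eif5). These counts were not above the corrected shares over all genes tested, 21.6% higher and 33% lower, by a margin that sets the members apart.

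Relative to control, inhibitor-treated cells had a higher translational efficiency of Eif2s2 (0.40 ± 0.11) and Eif5 (0.83 ± 0.12), and a lower one of Eif2b2, Eif2b3, Eif2b4 and Eif2b5, with 43.4% of all genes tested called, 16.3% upward and 27.1% downward. The median of all genes was shifted by -0.12 in this comparison. For Eif2b1 no difference was detected, with a log2 ratio of 1.12 ± 0.064 with the inhibitor and 1.16 ± 0.12 in control cells (SD, n = 4), with an interval of -0.18 to 0.10 for the difference. Eif2b4 was lower with a log2 change of -0.62 ± 0.095 and Eif2b5 with -0.50 ± 0.085. The lower value of Eif2b2 (-0.36 ± 0.14) lost its call in 8 of the 16 fits without 1 sample, with changes between -0.48 and -0.23 over the 16, and with the correction for coding length (-0.31). The other 5 calls held with the correction, with 16% of all genes tested called upward and 26.7% downward.

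Eif5 was the only one of the 9 with a higher translational efficiency at 16 h than in control cells in the uncorrected test. In cytosolic RNA it was at 352, 275, 301 and 301 CPM in control cells, at 261, 287, 256 and 284 CPM at 1 h and at 493, 399.8, 379 and 417 CPM at 16 h. The change at 1 h was not called (-0.18 ± 0.086, adjusted p = 0.0901), and at 16 h Eif5 was 1.37-fold higher, with all libraries above control. In polysome RNA it was at 131.3, 130.8, 153.2 and 115.7 CPM in control cells, at 173.8, 164.8, 162.9 and 176.4 CPM at 1 h and at 399.7, 426, 439 and 388 CPM at 16 h. The 3 groups did not overlap, and the 16 h level was 3.11-fold above control (log2 change 1.64 ± 0.071, adjusted p = 1.08e-14, 1.85 corrected for coding length), the largest polysome change of the 9 mRNAs at that time in both fits.

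The log2 ratio of polysome to cytosolic Eif5 was -1.02, -0.64, -0.55 and -0.95 in control samples, -0.19, -0.46, -0.30 and -0.34 at 1 h and 0.048, 0.47, 0.64 and 0.25 at 16 h. Every stressed sample lay above every control sample, and the change was 0.47 ± 0.12 at 1 h and 1.14 ± 0.12 at 16 h (adjusted p = 0.00173 and 7.78e-08). Corrected for coding length, the changes were 0.76 and 1.38. In cells given the inhibitor the ratio was 0.025, 0.015, 0.12 and 0.011, below the 16 h mean and above all control samples. The difference from 16 h was -0.31 ± 0.12 (adjusted p = 0.0285, -0.48 corrected for coding length), and the groups overlapped. The call was lost in 5 of the 16 fits without 1 sample (changes of -0.40 to -0.20 over the 16). All 5 left out a sample at 16 h or with the inhibitor, whereas the 16 include fits without a control or 1 h sample, which are outside this comparison. In polysome RNA itself, Eif5 with the inhibitor was at 217, 252, 233 and 254 CPM, 1.73-fold lower than at 16 h without it and 1.80-fold higher than in control cells.

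The genes around these factors were read from 4 lists. At 16 h against control in cytosolic RNA, 37.9% of all genes tested were called higher and 39.4% lower, and the counts of each list stand against those shares. Of 15 factors of start site selection and ternary complex handling, 11 were higher and 1 lower in cytosolic RNA at 16 h than in control cells, with a median log2 change of 0.45, against -0.012 for all genes tested. The polysome changes in this list were wide: Eif5b, which joins the ribosomal subunits, was 10.7-fold higher at 16 h than in control cells (6.95-fold corrected for coding length), and Eif2d, which can deliver tRNA without GTP, 2.22-fold lower (2.37-fold corrected). With the inhibitor, polysome Eif5b was 8.06-fold lower than at 16 h without it (4.61-fold corrected) and Eif2d 2.21-fold higher (2.64-fold corrected).

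All 12 measured eIF3 subunits, which form the scaffold of the initiation complex, were higher in cytosolic RNA at 1 h and at 16 h than in control cells. Their medians were 0.43 and 0.64, against 0.0031 and -0.012 for all genes tested. Of all genes tested, 28.1% were called higher at 1 h and 37.9% at 16 h. The translational efficiency of the eIF3 subunits split, with 2 higher and 8 lower at 16 h in both fits. Of all genes tested, 31.1% were higher and 33% lower in the uncorrected fit, and 31.3% and 30.4% in the corrected one. Eif3a, with a log2 change of 2.55 ± 0.10, and Eif3f, with -1.89 ± 0.076, were at the ends of that list at 16 h. With the correction these were 1.83 ± 0.099 and -1.49 ± 0.075, and the median over all genes with coding sequences above 2200 nt was 0.63 in this comparison. Of 13 genes of eIF2 phosphorylation, 6 were higher and 4 lower in cytosolic RNA at 16 h, near the shares over all genes tested (37.9% higher and 39.4% lower). Ppp1r15a, which targets the eIF2 phosphatase under stress, was 11.7-fold higher at 16 h than in control cells, and Ppp1r15b, its constitutive counterpart, 2.26-fold lower. With the inhibitor, cytosolic Ppp1r15a was 11.9-fold lower than at 16 h without it. Of 13 genes of the cap-binding complex eIF4F and its regulators, 8 were higher and 2 lower in cytosolic RNA at 16 h, with a median log2 change of 0.19. Eif4g1, its scaffold, had a translational efficiency higher by 1.57 ± 0.051, or 0.71 ± 0.047 corrected for coding length.

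Across the 32 libraries, log2 levels of the members were compared with each other and with 9933 genes of at least 5 CPM. These correlations are descriptions: the points are 16 samples measured in both kinds of RNA, and differences between the kinds and between the 4 conditions set most of them. Eif2b2 and Eif2b5 were most alike within eIF2B (Pearson r = 0.94 over 32 libraries), and Eif2s1 and Eif2s3x within eIF2 (0.93). Eif2s2 stood apart from the other eIF2 subunits (0.30 with Eif2s1, 0.16 with Eif2s3x) and was closer to Eif5 (0.73). Eif5 was near 0 with 4 eIF2B subunits, between -0.14 and 0.065 for all but Eif2b3 (0.38). The gene most like each member was Arfip1 for Eif2s1 (0.975), Mef2a for Eif2s2 (0.971), Oser1 for Eif2s3x (0.981), Drg1 for Eif2b1 (0.986) and Fbl for Eif2b2 (0.995). For Eif2b3 it was Aatf (0.991), for Eif2b4 Acy1 (0.988), for Eif2b5 Ano10 (0.988) and for Eif5 Qk (0.991).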

How the data were processed

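RNA of 16 samples of mouse embryonic fibroblasts was sequenced as cytosolic and as polysome RNA, in 32 libraries of 19.32 to 41.78 M counts. The authors deposited raw read counts by gene symbol for 20234 genes, of which 3234 were at 0 in every library. The submitters' processing notes name HISAT, mm10 and DESeq2 1.9.23. No counting tool, strand setting or annotation is stated there, so reads of overlapping or antisense genes cannot be assigned with certainty.

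Counts were fitted with edgeR 4.0.16 (quasi-likelihood test, TMM factors, filterByExpr with a minimum count of 10 and a minimum total of 15) and limma 3.58.1 in R 4.3.3. Cytosolic (12366 genes) and polysome RNA (12065 genes) were fitted over 16 libraries each, and translational efficiency (12561 genes) over 32 with the sample as a block. The 5 comparisons shared control and 16 h samples. p-values were adjusted over all genes tested by Benjamini-Hochberg at 0.05, and intervals are 95% from the SE. Coding lengths, leaders and ATGs came from GENCODE vM21 on GRCm38. The scripts were tested on simulated data.

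Whether the 4 replicates came from separate cultures is not stated, and p-values therefore measure only a spread between samples that may be technical. No pair of replicates agreed within sampling noise (lowest chi-square per degree of freedom 2.29). The members and the lists were chosen with earlier results of these data known. Besides the 9 members, up to 3 called genes with the smallest p per list, comparison and measure could be named, and the genes most like each member by Pearson r. Alternatives were DESeq2 1.42.0, RLE size factors, no filter, offsets corrected for coding length by a lowess curve (span 0.3) per library, a replicate block and leaving out each sample, and, chosen after seeing the data, leaving out number 1 or number 3 of control and 16 h.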

Additional observations from a re-analysis of the deposited data

Results flagged for a closer look

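In 4 of 108 sets of 4 values (72 of levels and 36 of polysome to cytosolic ratios), 1 sample lay far from the other 3, with a gap to its neighbour above Dixon's 95% critical value; chance gives about 1 in 20 such sets. They were the polysome level of Eif2b1 at 1 h in number 4 (42.7 CPM, median 40.7), that of Eif2b1 in number 1 with the inhibitor (85.4 CPM, median 83.0, just above the critical value), the log2 ratio of Eif2b1 in number 2 with the inhibitor (1.02, median 1.15) and that of Eif5 in number 3 with the inhibitor (0.12, median 0.020).

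In 9 cases a member was called in opposite directions in cytosolic and polysome RNA, with a called change in translational efficiency, which tests that difference. At 1 h against control these were Eif2s3x (change in translational efficiency -0.66) and Eif2b2 (-1.18). At 16 h against control they were Eif2b1 (-0.83), Eif2b2 (-0.94) and Eif2b5 (-0.93). With the inhibitor against 16 h without it they were Eif2b1 (0.80), Eif2b2 (0.57) and Eif2b5 (0.44), and with the inhibitor against control Eif2b4 (-0.62). With offsets corrected for coding length, 3 of the 9 cases held: Eif2s3x at 1 h, Eif2b5 at 16 h and Eif2b4 with the inhibitor against control. The other 6, those of Eif2b1 and Eif2b2 and that of Eif2b5 with the inhibitor against 16 h, were lost, and 1 case was added, Eif2b5 with the inhibitor against control. The comparisons share control and 16 h samples.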

How the results depend on the processing

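Of 135 changes (9 members, 5 comparisons, 3 measures), 32 altered their call or direction under at least 1 alternative. With offsets corrected for coding length, alone and with a replicate block, 8 reversed. In polysome RNA these were Eif2b1 at 16 h against control (0.12 and 0.12), Eif2b1 with the inhibitor against 16 h (-0.025 and -0.025), Eif2b2 in the same comparisons (0.21 and 0.21; -0.050 and -0.046) and Eif2s1 at 1 h (0.023 and 0.026). In translational efficiency they were Eif2s1 at 16 h against control (0.072 and 0.073), Eif2s2 at 1 h (0.38 and 0.38) and Eif2s2 with the inhibitor against 16 h (-0.046 and -0.046). The number of members called in translational efficiency with the inhibitor against 16 h fell to 4 under both, against 7; the cause was not tested. For 16 h against 1 h it was 4 without number 1 of control and 16 h, against 2. Leaving out each sample in turn reversed none of 2160 values, lost 33 calls and gained 9. Each comparison sets 1 condition against another, so many of these fits left out a sample outside the comparison. Such a fit bears on the comparison only through the scaling and spread shared by all conditions, and could hardly reverse it. DESeq2 and RLE size factors each lost the call of Eif2b2 (-0.28 under both) and gained that of Eif2s1 (0.31 under both) in translational efficiency with the inhibitor against control. Without the filter no call changed.

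Over all conditions together, replicate numbers did not pair the samples. Deviations of same-numbered libraries had a median correlation of 5e-04 in cytosolic RNA and -0.0558 in polysome RNA. Single same-numbered pairs ranged widely, from -0.806 to 0.915 in cytosolic and from -0.782 to 0.851 in polysome RNA. Pairs with different numbers ranged from -0.906 to 0.838 and from -0.815 to 0.775. Between control and 16 h, same-numbered libraries correlated at 0.915, 0.761, 0.555 and 0.0357 in cytosolic RNA. In polysome RNA the values were 0.075, 0.159, 0.851 and 0.748. Pairs with different numbers could be high there too, such as 0.806 for cytosolic control number 2 and 16 h number 3. Between control and 1 h the same-numbered cytosolic values were -0.771, -0.794, 0.324 and -0.197. Libraries of different conditions thus shared deviations that the numbers followed in some comparisons and not in others. Their source was not tested. The replicate block changed 1 of 135 calls, that of cytosolic Eif2b2 with the inhibitor against 16 h (-0.24, not called). That block takes the same shift per number in every condition. It cannot take up deviations of opposite sign, so it does not decide whether some conditions were paired. Where a call is absent, a change smaller than its interval was not detectable with 4 samples per group.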
